A study of Mus musculus with 4 samples.

Results

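The genes of the cytosolic ribosomal proteins were examined in gastrocnemius, the large calf muscle, of mice with or without extra PPARα. They were chosen by symbol: Rpl or Rps followed by a number and an optional letter, with Rplp0, Rplp1, Rplp2 and Rpsa, and without kinases, pseudogenes and Gm genes. The array annotation names 72 such genes. Of these, 45 had a probe set with no other gene symbol, out of 12393 genes with such a probe set in all, and the other 27 stand only on probe sets shared with pseudogenes or other genes. The 45 comprise 24 genes of the large subunit and 21 of the small subunit, each represented by its brightest probe set. A single symbol in the annotation does not show that a probe set reads that gene only. Where named below, the plainest probe set is instead the brightest whose name does not end in _s_at or _x_at, if the gene has such a probe set past the filter.

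The series holds 4 arrays of total RNA. MCK-PPARa muscle, from 2 mice, overexpresses PPARα, the fatty acid-sensing nuclear receptor, from a muscle-specific transgene named for the promoter of muscle creatine kinase (MCK). NTG muscle came from 2 littermates without the transgene and serves as the control. The sources used here do not give age, sex or strain background, and no treatment is named. Each group holds a replicate number 1 and a replicate number 2, and no label says what a number marks or ties an array to a mouse, so a p-value here reflects only how far these 4 arrays scatter.

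The cytosolic ribosome makes almost all of a cell's protein. Its large subunit, built from the Rpl proteins and its own ribosomal RNAs, forms the peptide bond, and its small subunit, built from the Rps proteins and 18S ribosomal RNA, reads the message. The proteins are needed in equal amounts, their genes are strongly expressed in muscle, and their messages begin with a pyrimidine tract through which the mTOR pathway controls their translation. Rpl3l is the exception in tissue use, since it replaces its paralogue Rpl3 in heart and skeletal muscle.

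The pyrimidine tract is a feature that the choice by symbol did not use. RefSeq start sites (build GRCm38.p6) were found for 39 of the 45 genes, 7 of them with more than 1 start. A run of at least 7 C or T letters was sought within 20 bases on either side of a start, on the gene's strand. It was found in 26 of the 39 (66.7%), against 27.5% of the 27025 genes in the same table. Runs that end before the start were counted too, though these lie outside the message as annotated. Runs of A or G of the same length were found in 3 (7.69%), against 29.7%. The following 30 bases centred on the start, written 5′ to 3′ with the longest pyrimidine run of the window in capitals where it has at least 5 letters, are those of the genes that differed by replicate number below and of Rpl27a, the gene with the lowest change by genotype. They were not picked for the tract, the most upstream start was taken where there are several, and Rpl8 had no start in the table.
Rps15 (chr10:80292416-80292445, plus strand): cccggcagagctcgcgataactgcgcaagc
Rpl35 (chr2:39005117-39005146, minus strand): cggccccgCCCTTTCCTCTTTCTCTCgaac
Rpl27 (chr11:101442230-101442259, plus strand): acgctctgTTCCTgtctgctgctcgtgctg
Rpl38 (chr11:114668565-114668594, plus strand): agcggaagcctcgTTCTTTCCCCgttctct
Rps27l (chr9:66946071-66946100, plus strand): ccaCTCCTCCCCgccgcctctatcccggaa
Rpl41 (chr10:128549154-128549183, minus strand): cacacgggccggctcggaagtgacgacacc
Rps19 (chr7:24884577-24884606, plus strand): tccgaaatctcgcgagactcgacgcccgac
Rps10 (chr17:27635230-27635259, minus strand): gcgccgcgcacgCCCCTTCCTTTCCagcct
Rpl3l (chr17:24727811-24727840, plus strand): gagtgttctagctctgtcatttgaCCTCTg
Rpl27a (chr7:109519180-109519209, plus strand): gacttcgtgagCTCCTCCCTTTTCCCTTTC

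The windows of Rpl35, Rpl38, Rps27l, Rps10 and Rpl27a hold runs of 9 to 19 pyrimidines. The run of Rps27l ends before the start. The windows of Rpl27 and Rpl3l hold runs of 5, that of Rpl27 also before the start, and those of Rps15, Rpl41 and Rps19 hold none of that length. The count above used 20 bases on either side and every start. By that rule Rps15, and Rps19 at a further start, have a run of 7 and are among the 26. The printed windows of the genes that differed by number thus include some with and some without a long tract. The letters CCGGAAG, which contain the core bound by ETS factors, occurred on either strand within the 300 bases around a start in 20 of the 39 genes (51.3%), against 9.93% of all genes in the table. The direct repeat AGGTCA, any base, AGGTCA, the textbook form of a PPAR response element, was matched on either strand in 0 of the 39 and in 0.0481% of all genes, which says only that these exact letters are not in these windows. The reverse complement of CCGGAAG begins with 5 pyrimidines, so matches to it and to the tract can overlap, and no match was tested as a binding site.

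The deposited signals of all 4 arrays had nearly the same 2% trimmed mean, 1499.8 to 1499.9, and their medians ran from 581.5 to 700.3. The labelled tissue was checked against 6 fibre markers, all of which passed the filter, and their summed signal was 823000 to 861000 in NTG and 855000 to 1030000 in MCK-PPARa. The targeted gene, Ppara, read 633 and 2674 in controls and, in transgenic muscle, 7969 and 15226, higher in both transgenic samples (3.0 ± 0.62 on the log2 scale used below, limma adjusted p = 0.21, and 0.00085 with replicate number as a block). Adipocyte markers had a summed signal of 9810 to 11600 over the 5 of 7 on the array in NTG and 28200 to 61400 in MCK-PPARa, and no marker of any list was at 0. The control probe set for the 5′ part of 18S ribosomal RNA read 2201.5 and 2313.1 on the number 1 arrays, control first, and 28.9 and 44.7 on the number 2 arrays. The probe set for its middle read 1780.8 and 2212.0 against 64.0 and 102.0, and that for its 3′ part 1414.4 and 1978.0 against 527.1 and 511.0. The 3′ to 5′ signal ratio was 0.79 to 0.88 for β-actin and 0.72 to 0.96 for Gapdh. The part of these differences in the results below was not tested, and in bulk muscle fewer cells of a type and less RNA per cell cannot be told apart.

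No cytosolic ribosomal protein gene passed the comparison of MCK-PPARa with NTG. Of the 45 genes, 41 passed the filter on dim probe sets, and 36 of those were among the brightest 10% of probe sets on the array. A change here is the mean log2(signal + 64.2) of the transgenic arrays less that of the controls, given with its standard error (SE, n = 2 per group). By limma's test, adjusted over 8402 genes, 0 of the 41 were called, against 0.0595% of all genes (5 genes), and 0 of the 41 had an unadjusted p under 0.05, against 5.83% of all genes. The smallest limma adjusted p among them was 0.89. With replicate number as a block 0 of the 41 passed and 5 had an unadjusted p under 0.05, against 2.51% and 15.0% of all genes. The 41 changes ran from -0.78 to 0.82 with a median of 0.12, and 28 were above 0, against a median of 0.05 and 55.5% above 0 for all genes tested. With 2 arrays per group the 95% intervals were wide, reaching ±0.66 for the best measured gene and ±1.5 for the worst. An absent call therefore does not show equal levels.

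**Figure D1:**
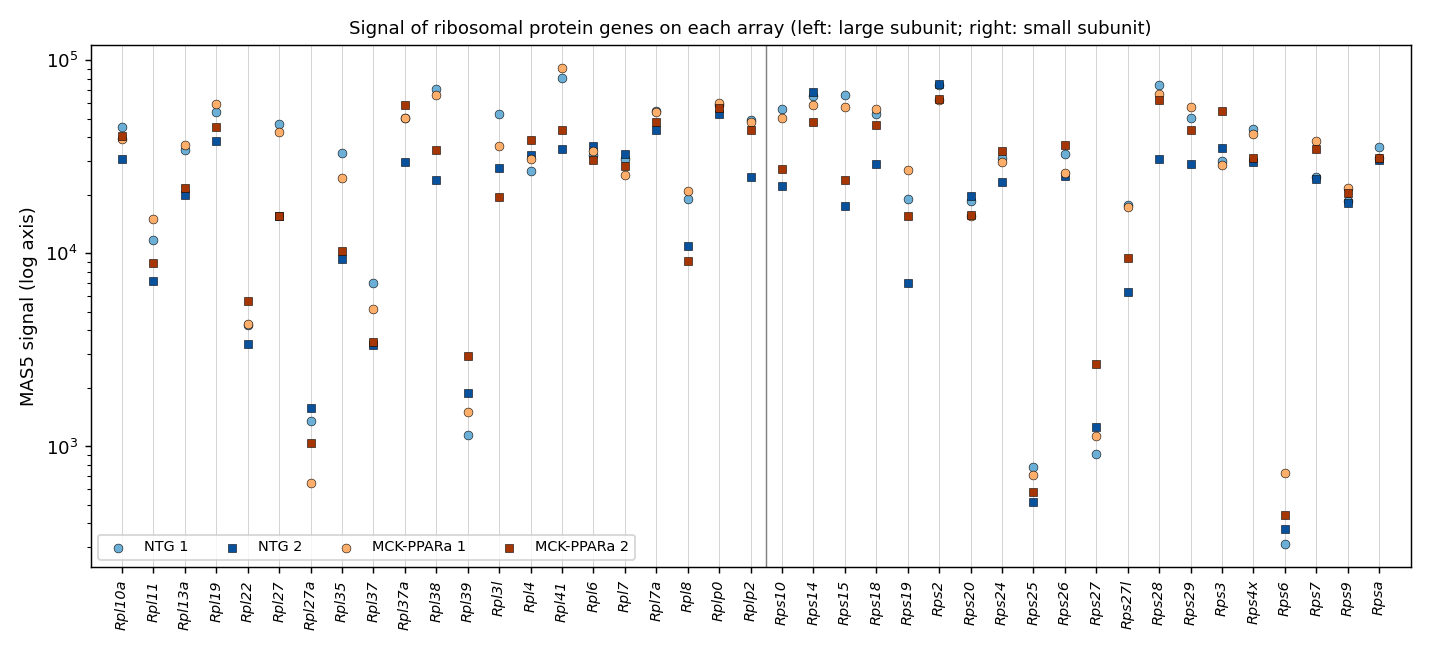
MAS5 signal (log axis) of the 41 ribosomal protein genes tested, large subunit on the left and small subunit on the right, with 1 point per array: circles are replicate number 1, squares number 2, blue NTG and orange or brown MCK-PPARa. For many genes, such as Rpl27, Rpl38 and Rps15, the circles lie together above the squares, so that the arrays part by number rather than by genotype; heights of different genes come from different probe sets and are not comparable.

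Among large subunit genes the median change was 0.10 over the 21 tested, with 13 above 0. Rpl27a, a core protein of the large subunit, had the lowest change of the 41 genes. Its signal was 1356 and 1573 without the transgene and 648 and 1038 with it, so that both transgenic samples lay below both controls. The change was -0.78 ± 0.35 (limma adjusted p = 0.89), and the difference was -1.0 between the number 1 arrays and -0.57 between the number 2 arrays. It was -0.47 without MCK-PPARa replicate 1 and stayed below 0 with each other array left out, down to -1.1.

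Rpl3l, the striated muscle form of Rpl3, was next. The NTG arrays 1 and 2 gave signals of 52538 and 27765, against 35887 and 19640 on the corresponding transgenic arrays, so that the groups overlap while each transgenic sample is below the control of its own number. The change was -0.52 ± 0.43 (95% interval -1.52 to 0.48, limma adjusted p = 0.96), with -0.55 and -0.50 between same-numbered arrays. It fitted as -0.06 without NTG replicate 1 and -0.98 without NTG replicate 2. No probe set carries Rpl3 alone, so the balance between the 2 forms was not measured here.

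Rpl7 gave 30865 and 32913 in the controls against 25622 and 28262 in transgenic muscle (-0.24 ± 0.29), with no overlap between the groups. Its other 2 probe sets both gave -0.45, with SE of 0.71 and 0.69 and overlapping groups. The brighter of them read 36390 and 12081 in controls and 31180 and 7505 in transgenic muscle, so that it fell by number in both groups. At the other end, Rpl37a, a zinc-binding protein, read 50186 and 29746 in controls and, in transgenic muscle, 50246 and 58968 (0.49 ± 0.36). Both transgenic samples were above both controls, but the number 1 pair differed by 0.00 and the number 2 pair by 0.99. Its other probe sets gave 0.09 and 0.37, and its change was 0.12 without NTG replicate 2 and 0.87 without NTG replicate 1. Rpl39, which lines the exit tunnel for the growing chain, read 1153 and 1886 without the transgene and 1502 and 2936 with it (0.49 ± 0.41), with overlapping groups. Without MCK-PPARa replicate 2 its change was 0.02, without replicate 1 of that group 0.96, without NTG replicate 1 0.15 and without NTG replicate 2 0.83. Its paralogue Rpl39l, a gene known from testis, did not pass the filter, with signals of 19.2 and 64.5 in the controls against 22.8 and 128 in transgenic muscle.

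The stalk proteins, which recruit translation factors to the large subunit, split in how steady they were. Rplp0 was nearly level on all arrays, at 58564 and 52553 in controls and, in transgenic muscle, 60452 and 56940 (0.08 ± 0.30). Rplp2 read 49071 and 24978 without the transgene and 47906 and 43414 with it (0.38 ± 0.38), so that NTG replicate 2 alone stood low. Rplp1 has no probe set of its own symbol and was not analysed here. Rpl13a, used in many laboratories as a reference gene, read 34354 and 20184 in the controls against 36582 and 21806 in transgenic muscle. Its change by genotype was 0.10 ± 0.40, while the number 2 arrays were lower than the number 1 arrays in both groups. Its 4 probe sets past the filter gave changes from -0.17 to 0.24.

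Among small subunit genes the median change was 0.21 over the 20 tested, with 15 above 0. The difference between the subunits was not tested. Rps19, which matures the small subunit and is known from inherited red cell aplasia, had the highest change. Its signal was 19217 and 7022 in controls and, in transgenic muscle, 26946 and 15689, with overlapping groups and each transgenic sample above the control of its number. The change was 0.82 ± 0.50 (95% interval -0.35 to 1.99, limma adjusted p = 0.96), with 0.49 and 1.15 between same-numbered arrays. It was 0.10 without NTG replicate 2 and 1.54 without NTG replicate 1.

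Rps7, a small subunit protein whose gene is known from the same aplasia, varied least between numbers among the 6 genes with the highest changes. Its signal was 24986 and 24184 without the transgene and 38087 and 34786 with it, with no overlap. The change was 0.57 ± 0.29 (95% interval -0.11 to 1.24, limma adjusted p = 0.91), with 0.61 and 0.52 between same-numbered arrays and 0.50 to 0.63 when single arrays were left out. Its second probe set past the filter gave only 0.07.

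Rps6, the classical substrate of the S6 kinases, was measured by a dim probe set. Its other probe set of that symbol alone did not pass the filter. It read 314 and 373 in the controls against 725 and 439 in transgenic muscle (0.63 ± 0.54). The groups did not overlap, and the difference was 1.06 in the number 1 pair and 0.20 in the number 2 pair. Its change was 0.31 without the first and 0.96 without the second MCK-PPARa array. Rps27 read 914 and 1254 in controls and, in transgenic muscle, 1130 and 2661 (0.67 ± 0.44). MCK-PPARa replicate 2 stood highest and the groups overlap. Without that array the change was 0.07, and without MCK-PPARa replicate 1 it was 1.26. Its p53-responsive paralogue Rps27l read 17792 and 6332 without the transgene and 17388 and 9500 with it (0.27 ± 0.52). There both number 1 arrays were high and both number 2 arrays low.

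Rps14, Rps20 and Rps2 had changes below 0, with no overlap between the groups in any of them. Rps14, which lies on the platform of the small subunit, read 65591 and 68318 in the controls against 58907 and 48005 in transgenic muscle (-0.33 ± 0.31). Rps20 read 18796 and 19796 in controls and, in transgenic muscle, 15707 and 15910 (-0.29 ± 0.29). Rps2, which lines the message entry channel, read 74163 and 75370 without the transgene and 62338 and 63326 with it (-0.25 ± 0.30). Replicates of Rps20 and Rps2 were close together, but the spread borrowed across genes left their intervals spanning 0. The second probe set of Rps20 past the filter gave 0.02, and that of Rps14 -0.17.

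Further genes had changes nearer 0 or wider spreads. Rps18, a further common reference gene, read 52548 and 29235 in the controls against 55728 and 46201 in transgenic muscle (0.37 ± 0.37). The X-linked Rps4x read 44378 and 29741 in controls and, in transgenic muscle, 41435 and 31369 (-0.01 ± 0.34). Rpsa, also known as the laminin receptor precursor, read 35716 and 30388 without the transgene and 31105 and 31365 with it (-0.08 ± 0.30). In all, 10 of the 41 genes had groups that do not overlap, against 34.2% of all genes tested. The transgenic samples were higher in 5 of them (Rpl22, Rpl37a, Rps6, Rps7 and Rps9; 20.4% of all genes) and lower in the other 5 (Rpl27a, Rpl7, Rps14, Rps2 and Rps20; 13.8% of all genes). Of the latter, Rpl7, Rps14, Rps2 and Rps20 were read from probe sets with names ending in _x_at.

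**Figure D2:**
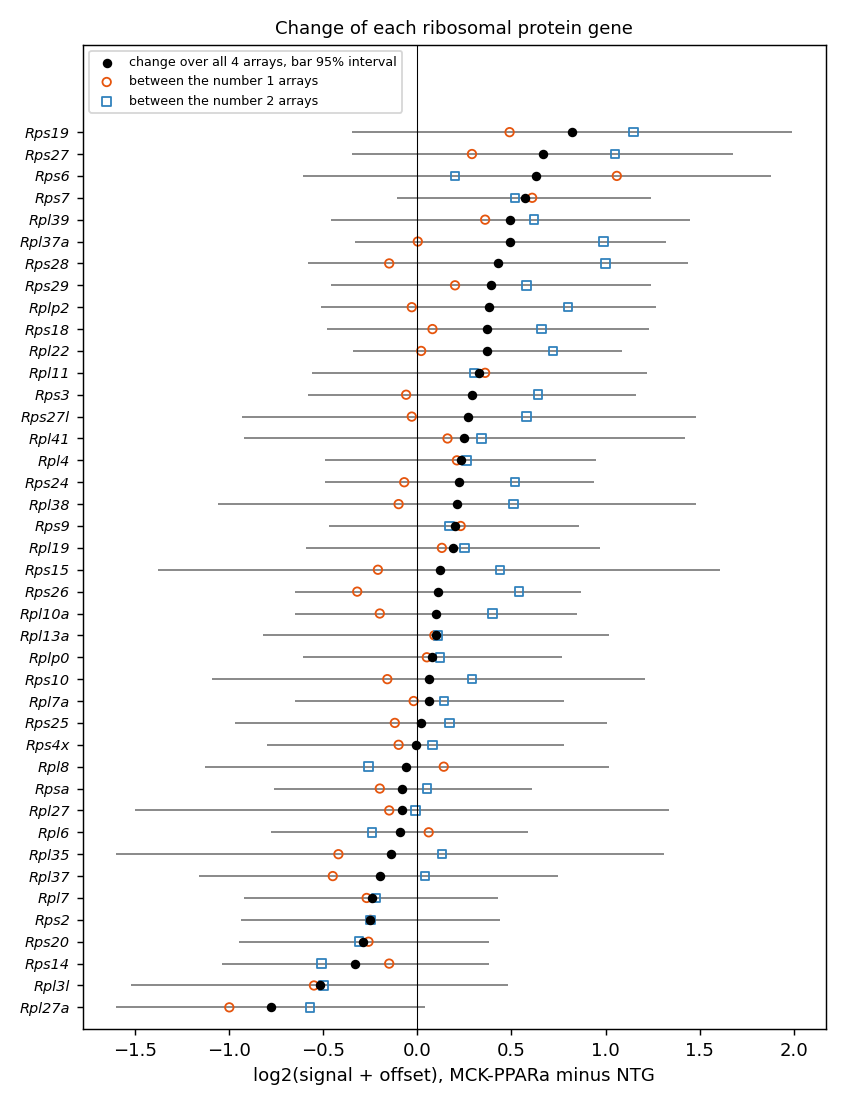
Difference of log2(signal + offset), MCK-PPARa minus NTG, for each of the 41 genes: black points are the change over the 4 arrays with its 95% interval from limma, open circles the difference between the number 1 arrays and open squares that between the number 2 arrays. All 41 intervals span 0, from Rpl27a at -0.78 to Rps19 at 0.82, and for many genes the squares lie to the right of the circles.

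The 4 genes below the filter were not tested. Rpl12 read 443 and 540 in the controls against 214 and 148 in transgenic muscle, lower in both transgenic samples, on a probe set whose signal is under the 40th percentile of the array. Rpl14 read 509 and 134 in controls and, in transgenic muscle, 241 and 323. Rps4l read 40.4 and 66.7 without the transgene and 74.4 and 89.6 with it, and Rpl39l is given above. Without the filter, 0 of the 45 genes were called by limma, with 1 at an unadjusted p under 0.05, against 0.0484% and 5.76% of all 12393 genes.

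Probe sets of the same gene did not always give the same sign. Of 18 genes with more than 1 probe set past the filter, 6 had changes on both sides of 0. The median range within a gene was 0.30, and the widest was that of Rps24, a small subunit protein with alternative 3′ ends, at 1.00 (from -0.78 to 0.22). The ribosomal probe sets that carry several symbols, left out above, were tested singly as a group. Of 90 past the filter, 60 had a change above 0, the median was 0.12 and 0 were called by limma, with 1 at an unadjusted p under 0.05. Of the 78 member probe sets with 1 symbol past the filter, 0 were called by limma and 1 had an unadjusted p under 0.05. That was the Rps24 probe set at -0.78. Of all 13576 probe sets tested in this way, 0.0516% were called and 5.66% had an unadjusted p under 0.05.

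The genotype difference was also taken between arrays of the same number. Between the number 1 arrays the median difference of the 41 genes was -0.03, with 18 above 0, and between the number 2 arrays it was 0.26, with 32 above 0. For all genes tested the medians were 0.05 and 0.06, with 4548 and 4605 of 8402 above 0. The 2 differences had the same sign in 23 of the 41 genes, against 61.5% of all genes tested, and opposite signs in 18. The widest gaps among these were those of Rps28 (-0.15 and 1.00), Rps26 (-0.32 and 0.54) and Rplp2 (-0.03 and 0.80), all small subunit or stalk proteins.

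NTG replicate 2 was the lowest of the 4 arrays for 27 of the 41 genes. Relative to NTG replicate 1 the median of the 41 genes was -0.55 on that array, -0.03 in MCK-PPARa replicate 1 and -0.23 in MCK-PPARa replicate 2, while for all genes tested it was 0.06, 0.05 and 0.12. The median change by genotype depended on single arrays. Leaving out NTG replicate 2 gave -0.18 and NTG replicate 1 gave 0.43. Leaving out MCK-PPARa replicate 1 gave -0.05, and its replicate 2 gave 0.19. Centring each array on its median moved the median of all genes by -0.10. The members' median was then 0.02, with 22 rather than 28 above 0.

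**Figure D3:**
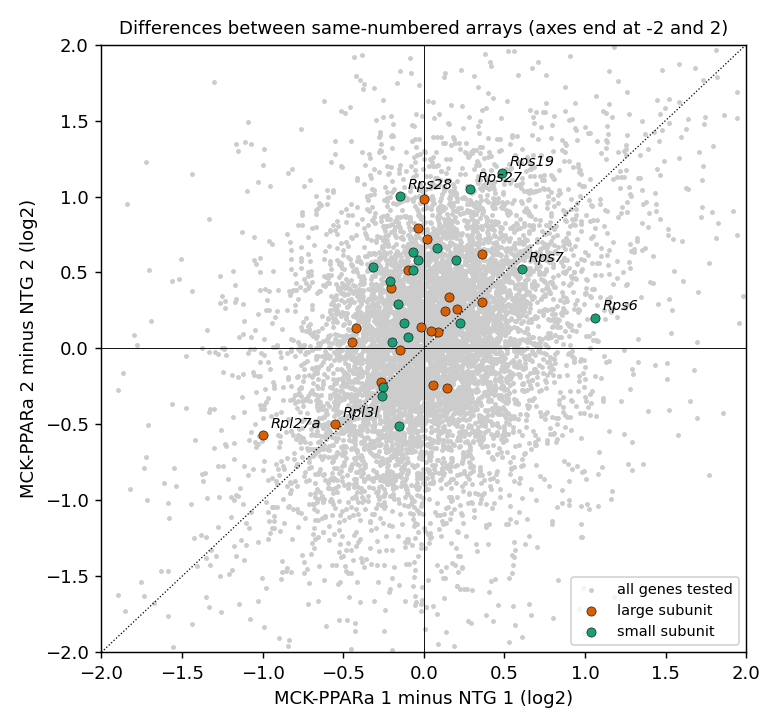
Difference between MCK-PPARa and NTG on the number 1 arrays (horizontal, log2) against that on the number 2 arrays (vertical, log2), for all 8402 genes tested (grey) and for large (orange) and small (green) subunit genes; the dotted line marks equal differences and the axes end at -2 and 2. Most ribosomal protein genes lie near 0 on the horizontal axis and above 0 on the vertical axis, with medians of -0.03 and 0.26, while Rps7 and Rpl3l lie near the dotted line.

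Several ribosomal protein genes differed by replicate number. This comparison was added after the values were seen. In a fit with genotype and number as terms, 31 of the 41 genes were lower on the number 2 arrays, against 3751 of all 8402 genes tested. The median difference was -0.26, against 0.07 for all genes tested. The count of 31 depended on the scaling: 10 of the 41 were above 0 as deposited, 19 with quantile normalization (median -0.19), 20 with cyclic loess (median -0.15) and 5 with median centring (median -0.40). With the mean of probe sets 8 were above 0 (median -0.47), and with the plainest probe set 9 (median -0.45). Of the 41, 10 passed the limma test and all 10 were lower on the number 2 arrays, where 2.95% of all genes were called lower and 4.61% were called in either direction. The 10 were Rps15, Rpl35, Rpl27, Rpl38, Rps27l, Rpl41, Rps19, Rps10, Rpl8 and Rpl3l.

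The largest such difference was that of Rps15, a protein of the small subunit's head. It read 66171 and 17698 on NTG arrays 1 and 2 and 57324 and 24071 on MCK-PPARa arrays 1 and 2, a difference of -1.57 ± 0.21 (limma adjusted p = 0.0091). Its other probe set past the filter read 23965 and 14016 on the NTG arrays and 23388 and 15537 on the MCK-PPARa arrays. On that probe set the fall was smaller in both groups. Rpl27 read 46928 and 15665 in the controls against 42331 and 15584 in transgenic muscle (-1.51 ± 0.19, limma adjusted p = 0.0071). On this probe set the 2 groups were nearly the same, while its other probe sets past the filter gave changes by genotype of -0.56 and -0.72. Rpl38, a small protein linked to selective translation of Hox messages, read 71135 and 24052 in controls and, in transgenic muscle, 66378 and 34377 (-1.25 ± 0.21, limma adjusted p = 0.019). Rpl6, Rps2, Rpl22, Rps20, Rps26, Rps9 and Rps7 lay between -0.09 and 0.05. At the other end Rps27 and Rpl39 were at 0.81, Rps3 at 0.56, Rpl27a at 0.42 and Rpl4 at 0.31, none of which passed. Without a variance trend in the fit limma called 0 of the 41, and 0 of all 8402 genes. At an unadjusted p under 0.05 that fit had 15 of the 41, against 21.4% of all genes. The 3 probe sets of 18S ribosomal RNA also read lower on the number 2 arrays, to unequal extents as given above, and their part in this difference was not tested.

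**Figure D4:**
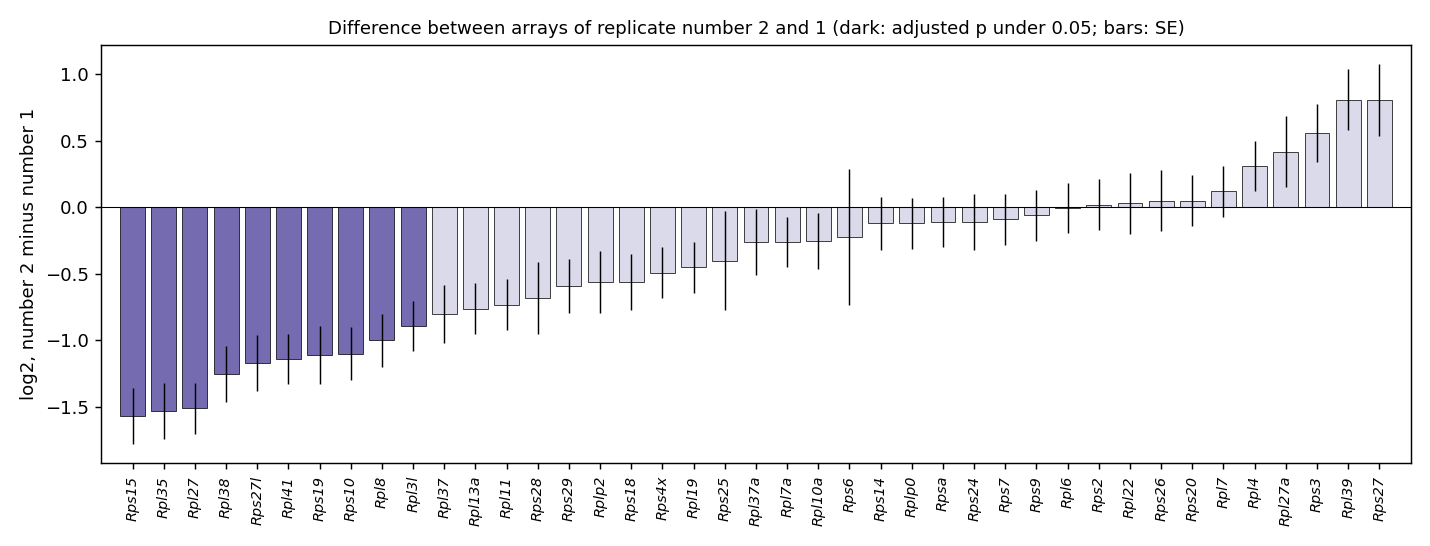
Difference of log2(signal + offset) between the arrays of replicate number 2 and those of number 1 in the fit with genotype as the other term, with its SE, for the 41 genes in order of the difference. The 10 dark bars, from Rps15 at -1.57 to Rpl3l at -0.89, had a limma adjusted p under 0.05, and no gene that was higher on the number 2 arrays did.

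The other parts of the translation machinery were also without a call by genotype. Of 4 tested ribosomal proteins whose symbols the rule leaves out, 0 passed, the highest being Fau, which encodes a ribosomal protein of the small subunit fused to a ubiquitin-like domain (31083 and 8748 in NTG, 41016 and 12587 with the transgene, 0.46 ± 0.69). Rpl22l1, a paralogue of Rpl22, had -0.23 ± 0.55, and Rps3a1 0.08 ± 0.30. Among 10 genes listed as elongation and termination factors 4 were above 0 and the median was -0.14. Those with the smallest p were Eef1e1 (-0.67 ± 0.30), the termination factor gene Gspt1 (-0.48 ± 0.28) and Eef1b2 (-0.29 ± 0.28). Eef1e1 stands on that list by its symbol only, and no role in elongation is meant. Among 29 initiation factors 11 were above 0 and the median was -0.07, with Eif4g3 at 0.56 ± 0.30, Eif4g2 at -0.61 ± 0.41 and Eif5 at 0.37 ± 0.30. Other messages with a pyrimidine tract had a median of -0.04 over 16 genes with 6 above 0. Among the 16 were Naca (-0.37 ± 0.29) and the elongation factor Eef1a1 (0.33 ± 0.33). The lists share genes, such as Eef1b2, and so are not separate sets. By limma 0 genes of these 4 lists passed, and 0 had an unadjusted p under 0.05, against 0.0595% and 5.83% of all genes tested. Of all genes tested 55.5% were above 0.

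Genes that build and regulate ribosomes were taken next. Ribosome biogenesis factors had a median of 0.07 over 37 genes with 22 above 0. Those with the smallest p were Imp4, which acts in 18S processing (0.89 ± 0.39), the export adaptor of the large subunit Nmd3 (0.59 ± 0.36) and the helicase Ddx21 (0.60 ± 0.37). With the mean of probe sets Nmd3 was at 0.05 and Ddx21 at 0.10, while Imp4 stayed at 0.89. RNA polymerase I genes had a median of -0.02 over 9 genes, with Polr1b at 0.40 ± 0.37, Taf1b at -0.17 ± 0.48 and Polr1a at 0.10 ± 0.31. By limma 0 genes of either list passed, with 0 at an unadjusted p under 0.05, against 0.0595% and 5.83% of all genes tested. For changes above 0 the share of all genes was 55.5%. Of 20 genes of the mTOR and S6 kinase pathway 11 were above 0, the median was 0.05 and 0 passed, with 1 at an unadjusted p under 0.05. That gene was Deptor, an inhibitor bound to mTOR, which read 3690 and 3214 without the transgene and 6275 and 5688 with it (0.78 ± 0.29, limma adjusted p = 0.71). Rheb, the GTPase that activates mTOR, read 9939 and 7886 in the controls against 5814 and 5250 in transgenic muscle (-0.67 ± 0.30), and Ddit4, a stress-induced inhibitor of the pathway, had -0.83 ± 0.40. The groups of Deptor, Rheb and Ddit4 do not overlap, as in 8 of the 20 pathway genes, against 34.2% of all genes, and none of the 3 was called.

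The mitochondrial ribosomal proteins, which translate the messages of the mitochondrial genome, had a median change of 0.03 over 74 genes with 42 above 0. By limma 0 of the 74 passed, with 1 at an unadjusted p under 0.05, against 0.0595% and 5.83% of all genes tested. The medians of the 74 were -0.04 between the number 1 arrays and 0.15 between the number 2 arrays. By replicate number 8 of the 74 passed, 7 of them lower on the number 2 arrays, with a median difference of -0.18, against 4.61% of all genes called in either direction, 2.95% called lower and a median of 0.07. The difference between cytosolic and mitochondrial ribosomal proteins was not tested. The smallest p by genotype belonged to Mrpl14 (0.77 ± 0.29, limma adjusted p = 0.74), Mrpl11 (-0.84 ± 0.42) and Mrpl55 (-0.50 ± 0.33). With the mean of probe sets Mrpl11 was at -0.38, while Mrpl14 and Mrpl55 stayed at 0.77 and -0.50.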

How the data were processed

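The deposited table holds 1 signal intensity per probe set and array, made with MAS5 per the submitters' processing notes. For its version, settings and detection calls nothing is stated in the material used. The 22690 probe sets include 64 controls. Of the rest, 20380 have 1 symbol, 691 several and 1555 none here, by the platform annotation, and 0 symbols differed in the reference gene table (GRCm38.p6). The deposited intensities were used without further normalization and transformed to log2 after adding 64.2, which is 10% of the median signal. Dim probe sets (mean under the 40th percentile) were dropped, and each gene was read from its brightest probe set with 1 symbol, leaving 8402 genes. The 2 genotypes were compared with limma 3.58.1 (R 4.3.3; lmFit, eBayes with a variance trend, two-sided, Benjamini-Hochberg over all genes, threshold 0.05). An exact permutation test of 2 against 2 cannot give a p below 0.333. The offset understates changes of dim genes. The number of arrays limits precision. The fit was tested on data simulated with independent noise and no difference by replicate number. The real arrays share deviations by number, so that test does not cover them in this respect.

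Members and gene lists were chosen with earlier results of these data known. Named were the 6 highest and 6 lowest changes, set paralogues, stalk and reference genes, the 3 widest gaps between numbers of opposite sign, and up to 3 genes by smallest p of each other list. Alternatives were other offsets, normalizations, filters, probe set choices, no variance trend, the replicate block and single arrays left out. Start sites come from RefSeq.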

Additional observations from a re-analysis of the deposited data

How the results depend on the processing

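In all 15 alternatives 0 cytosolic ribosomal protein genes were called by limma, and the smallest adjusted p of any of them was 0.095, without NTG replicate 1. The count over all genes was 2 with quantile normalization, 1 with median centring, 16 with the mean of probe sets, 3 without a variance trend and 72 to 150 with single arrays left out. With the replicate block it was 211, while 0 of the 41 ribosomal protein genes passed (smallest adjusted p 0.10). Deviations from group means correlated between same-numbered arrays (r = 0.47 across all genes, 0.79 across the 41), which with 2 pairs does not show pairing, and genes are not independent replicates. The members' median change ran from -0.18 to 0.43 with single arrays left out. The count lower by number, 10, was 0 without a variance trend, and the cause was not tested. With 3 arrays the fit with both genotype and number has no residual degrees of freedom, so single arrays were not left out of it. Reversed signs were those of Rpl13a (-0.0007 with median centring, -0.17 with the plainest probe set, -0.28 to 0.48 with single arrays left out), Rplp0 (-0.02) and Rps3a1 (-0.02) and Polr1a (-0.01) with median centring, Eif5 (-0.13, mean of probe sets), and Gspt1 (0.07) and Nmd3 (-0.48) with the plainest probe set. With single arrays left out, changes ran from -0.45 to 1.37 for Fau, -0.96 to 0.49 for Rpl22l1, -0.04 to 0.21 for Rps3a1, -0.11 to 0.30 for Polr1a, -0.59 to 0.26 for Taf1b, -0.11 to 0.87 for Rplp2, -0.05 to 0.79 for Rps18, -0.13 to 0.35 for Rps26, -0.47 to 1.01 for Rps27l, -0.20 to 1.06 for Rps28, -0.30 to 0.28 for Rps4x and -0.19 to 0.04 for Rpsa. No detection call was used, so dim probe sets may lie near background.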
